A study of Mus musculus with 15 samples.

Results

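Lysophosphatidic acid (LPA) is a small signalling lipid, and the genes described here are those that make it outside the cell, sense it and break it down. They are Enpp2, which encodes the secreted enzyme autotaxin, the LPA receptor genes Lpar1, Lpar2, Lpar3, Lpar4 and Lpar6, and Plpp1, Plpp2 and Plpp3, which encode membrane phosphatases that dephosphorylate LPA. These 9 genes of the 53337 with a value were chosen by name, and the choice was also made on measured values, because Lpar1 and Enpp2 were known to be higher in AVP-exposed females in these libraries. All measures from the female comparison are therefore given as a description with no test, and tests are given for males only.

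Autotaxin cleaves lysophosphatidylcholine to LPA in extracellular fluid, and it is abundant in the choroid plexus and in other border tissues of the brain. Lpar1 to Lpar3 belong to the EDG family of G protein-coupled receptors, together with the receptors for the related lipid sphingosine 1-phosphate (S1P), whereas Lpar4 and Lpar6 belong to the purinergic (P2Y-like) branch. In the embryonic cortex LPA is known for its action on neural progenitors and on young neurons, mainly through G proteins that act on the actin cytoskeleton.

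The tissue was dorsal forebrain at embryonic day (E) 18 from C57BL/6J offspring of dams that received arginine vasopressin (AVP), or saline as the vehicle, by subcutaneous osmotic minipump from before breeding and through gestation, an infusion used as a model of preeclampsia. No group carried a transgene or deletion. There were 4 AVP male, 4 saline male, 3 AVP female and 4 saline female libraries, and the authors left out 1 AVP female library as an outlier. Brains of 1 group came from separate litters and males and females of a treatment shared litters, but the labels do not tie a library to its litter. Values are TPM, a transcript abundance scaled to transcript length and to the total of the library, and the number of reads behind each library is unknown.

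Before the results, 3 libraries need a remark. The library labelled saline male 3 had Xist, the RNA of the inactive X chromosome, at 266 TPM, against 0.121 to 1.13 TPM in the other 7 males and 174 to 294 TPM in females. The 4 genes of the Y chromosome that were checked, Eif2s3y, Kdm5d, Uty and Ddx3y, summed to 0.489 TPM, against 102 to 155 TPM in the other males, so male results are also given without it. AVP female 2 and saline female 4 stood apart in Frzb, a secreted Wnt inhibitor chosen after its values were seen, at 18.8 and 14.03 TPM, against 0.840 to 3.94 TPM in the other 13 libraries. Markers of dorsal forebrain were present in every library, with the cortical neuron gene Neurod6 at 471 to 728 TPM and its relative Neurod2 at 154 to 232 TPM. The summed level of the 8 dorsal forebrain markers was 1076 to 1505 TPM over all groups.

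Several of these genes are expressed as more than 1 transcript, and the stretches that set the transcripts apart are printed here because the shares below turn on them. Plpp1 has a pair of alternative coding exons of which each transcript holds 1. Plpp1-201 uses the exon at chr13:112834859-112835013 and Plpp1-202 the exon at chr13:112851403-112851554 (GRCm38, plus strand). Their lengths are 155 and 152 nt, and 101 bases were identical over 169 aligned columns (59.8%). The capitals mark the longest stretch that both exons hold, of 8 bases, from the GENCODE M21 transcripts.
Plpp1-201 exon: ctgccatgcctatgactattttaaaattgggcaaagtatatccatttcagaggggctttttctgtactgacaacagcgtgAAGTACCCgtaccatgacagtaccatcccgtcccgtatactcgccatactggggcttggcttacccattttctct
Plpp1-202 exon: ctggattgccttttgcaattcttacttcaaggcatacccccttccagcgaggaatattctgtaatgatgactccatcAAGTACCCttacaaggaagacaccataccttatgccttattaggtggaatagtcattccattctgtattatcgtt

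Enpp2 on chromosome 15 (54838901 to 54952892, minus strand) differs between its main transcripts in its coding exons. Enpp2-201 has a coding length of 2586 nt. Enpp2-204, of 2730 nt, holds an exon of 156 nt at chr15:54877776-54877931 that Enpp2-201 lacks. It is printed because the share of Enpp2-204 is described below, and no part of it is set in capitals.
Enpp2-204 extra exon: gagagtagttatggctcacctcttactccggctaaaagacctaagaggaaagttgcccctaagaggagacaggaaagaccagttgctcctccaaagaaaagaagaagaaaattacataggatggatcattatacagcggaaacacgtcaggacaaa

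Lpar1 on chromosome 4 (58435255 to 58553898, minus strand) starts at distant sites. Lpar1-201 begins at base 58553357 and has a coding length of 1092 nt, and Lpar1-202 begins at base 58499403 with a coding length of 1038 nt. RefSeq promoter windows (250 bases before to 50 after a start, GRCm38) were found for 7 of the 9 genes, 3 of them for Lpar1, and the window nearest to each of these starts is printed to show how the 2 differ. The windows are chr4:58553244-58553543 and chr4:58499354-58499653. Both strands were searched for the TATA box TATAAA, the GC box GGGCGG and the CCAAT box CCAAT, and capitals mark the matches.
Lpar1 upstream start: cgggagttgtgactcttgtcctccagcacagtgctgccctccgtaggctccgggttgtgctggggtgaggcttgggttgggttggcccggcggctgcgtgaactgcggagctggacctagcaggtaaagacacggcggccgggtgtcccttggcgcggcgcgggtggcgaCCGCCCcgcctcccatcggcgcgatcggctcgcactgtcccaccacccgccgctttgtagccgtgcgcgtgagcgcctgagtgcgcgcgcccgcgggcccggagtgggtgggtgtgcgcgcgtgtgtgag
Lpar1 downstream start: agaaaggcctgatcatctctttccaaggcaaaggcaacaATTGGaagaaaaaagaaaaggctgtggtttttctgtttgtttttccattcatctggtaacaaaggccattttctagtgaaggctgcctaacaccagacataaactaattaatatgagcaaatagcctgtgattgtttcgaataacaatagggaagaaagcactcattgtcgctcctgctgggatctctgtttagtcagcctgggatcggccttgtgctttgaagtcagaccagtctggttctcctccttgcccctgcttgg

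The upstream window held 37 CpG dinucleotides and 1 GC box, and the downstream window held 3 CpG and 1 CCAAT box. The median of 32544 windows of this length was 7 CpG. A GC box was found in 35.9%, a CCAAT box in 37.4% and a TATA box in 13.6% of all windows, and neither printed window held a TATA box. A match is a description of the letters and not of binding.

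Over the 15 libraries, Plpp3 had the highest level, at 28.9 ± 4.37 TPM (SD, n = 15). It was followed by Plpp1 at 22.1 ± 1.67, Enpp2 at 19.1 ± 5.38, Lpar1 at 8.18 ± 2.58, Plpp2 at 7.32 ± 1.25 and Lpar2 at 5.80 ± 0.793 TPM. Lpar6 at 1.69 ± 0.454, Lpar4 at 1.60 ± 0.404 and Lpar3 at 0.352 ± 0.271 TPM were the lowest. The ranges of neighbours in this order overlapped except between Lpar2 and Lpar6 and between Lpar4 and Lpar3. Within a library, Plpp3 was above Plpp1 and Enpp2 above Lpar1 in 15 of 15, Plpp1 was above Enpp2 in 11, and Lpar1 was above Plpp2, and Lpar6 above Lpar4, in 9 of 15. Plpp3 and Plpp1, which break LPA down, were thus the most abundant, and of the receptors Lpar1 and Lpar2 exceeded the P2Y-like pair in every library.

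**Figure D1:**
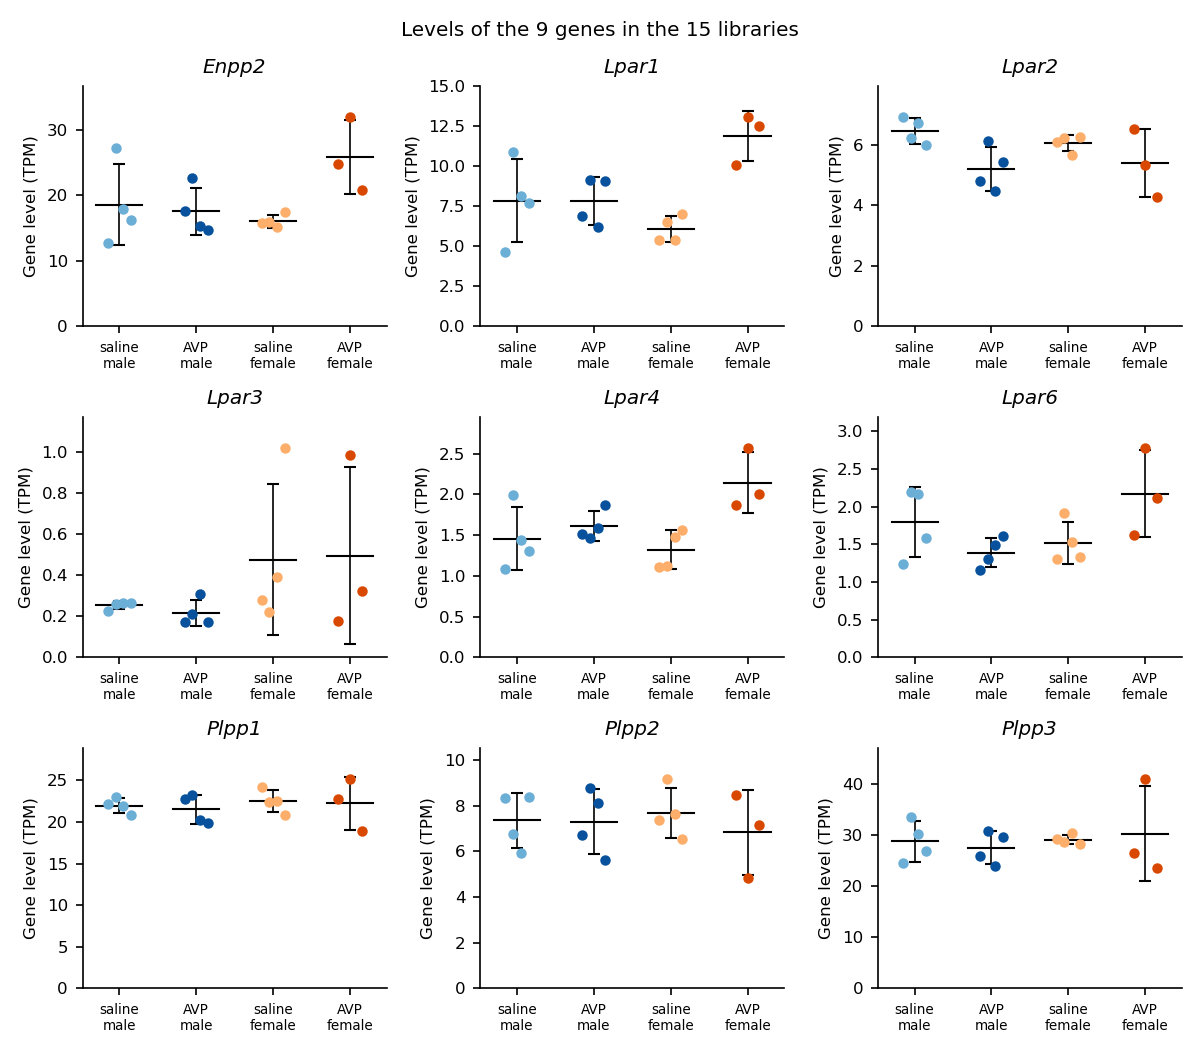
Gene level in TPM (vertical axis, from 0) of the 9 genes in the 4 groups, 1 point per library, with the group mean and SD as bars. The AVP female points of Enpp2, Lpar1 and Lpar4 lie above all saline female points, while the male groups overlap for all 9 genes.

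Enpp2, the LPA-producing enzyme, stood at 24.8, 31.9 and 20.8 TPM in AVP females 1 to 3. The saline females were at 15.7, 15.9, 15.1 and 17.5 TPM. AVP males were at 17.6, 22.6, 15.3 and 14.7 TPM, and saline males at 12.7, 27.3, 18.0 and 16.3 TPM. The AVP females thus lay above all saline females without overlap, whereas the lowest and the second highest of the 15 values were both saline males. The mean of AVP females was 1.61 times that of saline females (25.8 ± 5.63, n = 3, against 16.1 ± 1.01 TPM, n = 4), a log2 difference of 0.65 that is given with no test. In males the log2 difference was -0.04 (SE 0.22, 95% confidence interval -0.55 to 0.46), which did not pass limma's test (adjusted p = 0.946).

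Lpar1, the first LPA receptor identified and one known from the ventricular zone of the cortex, was at 10.1, 13.05 and 12.5 TPM in AVP females. Saline females were at 5.40, 6.52, 5.38 and 6.99 TPM. Male values were 6.88, 9.12, 6.22 and 9.08 TPM with AVP, and 4.64, 10.9, 8.15 and 7.73 TPM with saline. As for Enpp2, the female groups did not overlap, and saline males 1 and 2 marked the lowest and the highest male values. AVP females averaged 11.9 ± 1.58 TPM (n = 3) and saline females 6.07 ± 0.812 TPM (n = 4), a ratio of 1.96 and a log2 difference of 0.91, given with no test. The male log2 difference was 0.03 (SE 0.24, interval -0.51 to 0.57, limma adjusted p = 0.962). The female difference was selected on and has its own error, so it is not weighed against this interval. The difference between the sexes was not tested.

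Lpar2, an EDG-type receptor, showed the largest male log2 difference of the tested members on deposited TPM. By the ratio of mean TPM, AVP to saline, the male difference was larger for Lpar6 (0.774) than for Lpar2 (0.806). Lpar2 was at 4.82, 6.11, 4.46 and 5.42 TPM in AVP males and 6.90, 6.23, 6.71 and 5.99 TPM in saline males. Thus 3 AVP males lay below all saline males and AVP male 2 lay within their range. The log2 difference was -0.29 (SE 0.12, interval -0.57 to -0.01), with an unadjusted p of 0.0424 by limma and an adjusted p of 0.353. The exact two-sided permutation test over the 70 groupings gave p = 0.0571, where 0.0286 is the smallest p possible for 4 against 4. The median of all genes tested in males was itself at -0.10 on this scale, so that Lpar2 differed from it by -0.19. With median-of-ratios scaling and with quantile normalization the unadjusted p of Lpar2 was no longer under 0.05, at log2 differences of -0.19 and -0.14. AVP females had Lpar2 at 6.52, 5.33 and 4.28 TPM and saline females at 6.10, 6.20, 5.65 and 6.25 TPM, and the groups overlapped.

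Lpar3, the third EDG-type receptor, was near the lower end of what TPM resolve. It was at or under 0.391 TPM in 13 libraries, and at 0.987 TPM in AVP female 2 and 1.02 TPM in saline female 4, the libraries with high Frzb. No male library reached the minimum of 1 TPM, so Lpar3 was not in the male fit. The exact permutation test in males gave p = 0.229 (n = 4 and 4).

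Lpar4 and Lpar6, P2Y-like receptors known from blood vessels, were both low. Lpar4 was at 1.87 to 2.56 TPM in AVP females and at 1.11 to 1.57 TPM in saline females, again without overlap. Lpar6 was at 1.62, 2.78 and 2.12 TPM against 1.31, 1.91, 1.53 and 1.34 TPM, and overlapped. The female log2 differences were 0.54 and 0.39. In males, Lpar4 was at 1.46 to 1.87 TPM with AVP and 1.09 to 1.99 TPM with saline, with a log2 difference of 0.12 (interval -0.30 to 0.55, limma adjusted p = 0.797). Lpar6 had a male log2 difference of -0.26 (interval -0.71 to 0.19, limma adjusted p = 0.562), from 1.16 to 1.61 TPM with AVP and 1.24 to 2.19 TPM with saline. At these levels the pseudocount of 0.5 TPM makes the log2 difference smaller than that of the TPM themselves.

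Of the phosphatases, Plpp1 had the smallest SD relative to its mean of all 9 genes. It was at 19.9 to 23.3 TPM in AVP males, 20.9 to 23.0 TPM in saline males, 18.9 to 25.1 TPM in AVP females and 20.9 to 24.2 TPM in saline females. Its male log2 difference was -0.03, with an interval of -0.22 to 0.15 that is the narrowest of the 8 tested members. Plpp2 was at 5.64 to 8.77 and 5.94 to 8.37 TPM in AVP and saline males (log2 difference -0.01, interval -0.39 to 0.36). Plpp3, which acts on the cell surface, was at 23.9 to 30.8 and 24.5 to 33.7 TPM in these groups (log2 difference -0.06, interval -0.33 to 0.21). The limma adjusted p-values of the 3 phosphatases in males were 0.889, 0.979 and 0.854. The female log2 differences were -0.02 for Plpp1, -0.18 for Plpp2 and 0.02 for Plpp3. Plpp3 reached its highest value, 41.0 TPM, in AVP female 2, while AVP females 1 and 3 were at 26.4 and 23.6 TPM. Without AVP female 2 and saline female 4, every AVP female lay below every saline female for Plpp3 (mean 25.0 against 29.4 TPM, n = 2 and 3). With all libraries the female groups overlapped. No share over all genes was computed for the reduced set, and nothing is read from this separation.

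Counted over the members, 8 of 9 passed the filter on low values and 0 of 8 passed limma's adjusted threshold of 0.05 in males. Over all genes, 1 of 15271 (0.00655%) did, the microRNA gene Mir6392, which is named here after its value was seen. At an unadjusted p under 0.05 there were 2057 genes (13.5%) in males, and 1 of the 8 members. In 0 of the 8 members did the male groups separate without overlap, against 7.26% of all genes. In females, 3 of 8 members (Lpar1, Enpp2 and Lpar4) had every AVP library above every saline library and 0 had every AVP library below. Over all genes these shares were 2.78% and 2.77%, and nothing is read from the member count because the members were selected on this contrast. No gene passed the adjusted threshold in females (0 of 15132, 0% by limma, with 683 at an unadjusted p under 0.05). The authors' own test, with sleuth, did call genes in both sexes, and Lpar1 and Enpp2 were among those called in females.

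**Figure D2:**
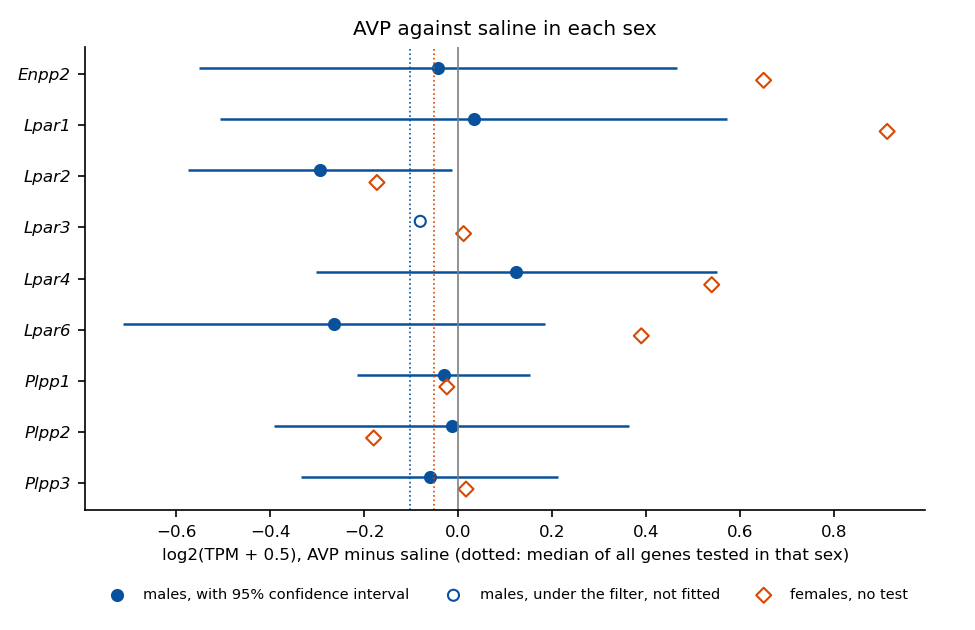
Difference in mean log2(TPM + 0.5), AVP minus saline (horizontal axis), for each of the 9 genes. Filled circles are males with 95% confidence intervals from limma, the open circle is Lpar3, which was not fitted, and open diamonds are females with no test. Lpar1 and Enpp2 were selected on their female values, so these are not weighed against the male intervals. No difference between the sexes was tested. Dotted lines mark the median of all genes tested in males (-0.10) and in females (-0.05).

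Without the library labelled saline male 3, none of the 8 tested members passed the threshold in males by limma. Lpar1 was then at 0.07 (limma adjusted p = 0.957), Enpp2 at -0.04 (0.974), Lpar2 at -0.28 (0.624), Lpar6 at -0.18 (0.819) and Plpp2 at -0.10 (0.878) on the log2 scale. In females, without AVP female 2 and saline female 4 (n = 2 and 3), the log2 differences were 0.91 for Lpar1, 0.53 for Enpp2 and 0.49 for Lpar4. These 3 still separated without overlap, but no share over all genes was computed for this reduced set. The value of Lpar6 was 0.19 in place of 0.39.

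Transcript shares were examined for the 5 members with at least 2 transcripts at a mean of 1 TPM. Enpp2-201 made up most of Enpp2, at 86.1, 85.8, 88.2 and 96.0% in AVP males and 74.4, 85.6, 84.4 and 82.7% in saline males. Every AVP male was above every saline male, a difference of 7.22 points in the mean. The exact permutation p was 0.0286, the smallest possible for 4 against 4, and it did not pass after adjustment over the 5 members (adjusted p = 0.143). In females, Enpp2-201 made up 77.1, 83.5 and 84.8% with AVP and 89.0, 85.3, 85.1 and 86.2% with saline, so that every AVP female was below every saline female, a difference of -4.59 points given with no test. Enpp2-204, with the extra exon printed above, made up 11.7, 9.03 and 11.4% in AVP females and 2.16 to 8.80% in saline females, against 2.20 to 8.09% in AVP males and 8.72 to 11.3% in saline males. Enpp2-203 was listed at 0 in every library. The TPM of Enpp2-204 itself were 0.323 to 2.89, so its share rests on a low level. How often transcript shares of all genes separated without overlap was not computed, so nothing is read from a separation here or below.

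Plpp1-202, with the alternative exon, made up 31.0, 30.5 and 33.8% of Plpp1 in AVP females and 14.3 to 30.2% in saline females. The female groups did not overlap, but saline female 3, at 30.2%, lay next to AVP female 2, at 30.5%. The other saline females were at or under 19%. This female separation was not tested, and no share over all genes was computed for it. In males the shares were 18.1 to 28.1% with AVP and 23.3 to 24.9% with saline, and the share of Plpp1-201 differed by -0.402 points (exact permutation p = 0.886, n = 4 and 4). The saline males were thus within 2 points of each other, the tightest group of any share examined.

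The other shares varied widely between libraries of a group. Lpar1-202, from the downstream start, made up 35.1 ± 18.1% of Lpar1 over the 15 libraries, from 0% in saline male 1 to 59.3% in saline female 1. Lpar2-201 made up 1.33 to 91.7% of Lpar2 in AVP males alone, and Plpp2-201 made up 27.9 to 89.2% of Plpp2 in saline males. In females, Plpp2-201 made up 59.7, 52.7 and 44.7% with AVP and 23.7 to 38.3% with saline. These female groups did not overlap, which is given with no test and with no share over all genes. The exact permutation p-values in males were 0.286 for Lpar1-201, 0.800 for Lpar2-201 and 0.857 for Plpp2-201 (n = 4 and 4). Transcripts of these genes share most of their sequence, so their split by the authors' quantification carries more error than the gene sum. Tested singly, 0 of the member transcripts passed in males, where 3 of 39364 transcripts (0.00762%) did by limma.

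**Figure D3:**
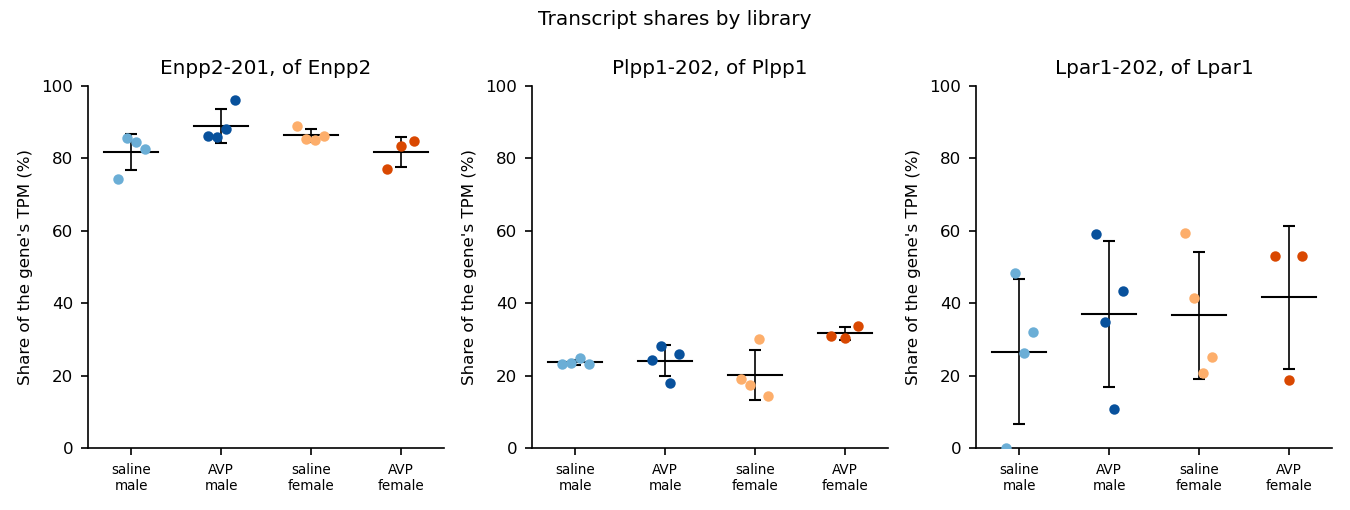
Share of a gene's TPM in percent (vertical axis, 0 to 100) held by Enpp2-201, Plpp1-202 and Lpar1-202, 1 point per library, with group mean and SD. For Enpp2-201 the AVP male points lie above the saline male points, and the AVP female points below the saline female points, both by narrow margins. The male difference did not pass adjustment (exact permutation test, adjusted p = 0.143) and the female difference was not tested. Lpar1-202 spreads from 0 to 59.3% over the 15 libraries.

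Lpar1 and Enpp2 moved together over the male libraries. Pearson's r of their log2 levels was 0.792 (exact permutation p = 0.0197, n = 8) and Spearman's rho was 0.738 (exact permutation p = 0.0458). It was 0.798 for deviations from the group means, 0.891 for deviations from the means of the 2 runs of sequencing numbers in the labels and 0.792 without the library labelled saline male 3. Without saline males 1 and 2, the libraries farthest from the median of Lpar1, r fell to 0.373, so the relation rests on those 2 libraries.

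The genes whose levels were most like Lpar1 over the 15 libraries were Col5a2 (r = 0.935), Gpx8 (0.932), Col5a1 (0.907), Adamts12 (0.904) and Col3a1 (0.902), of 15077 genes compared. Col5a2, Col5a1 and Col3a1 encode fibrillar collagens and Adamts12 an extracellular protease. Enpp2 was most like Wls (0.941), which carries Wnt proteins to the cell surface, Selenop (0.922), a secreted selenium carrier, Hif3a (0.910), Cpq (0.902) and Slc7a11 (0.896), a cystine transporter. Enpp2 itself was in place 52 of the list for Lpar1 (r = 0.841). In the 8 males alone, r was 0.937 to 0.985 for the 5 genes of Lpar1 and 0.873 to 0.958 for those of Enpp2. These are descriptions over libraries that include the females on which Lpar1 and Enpp2 were selected.

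Plpp3 was most like a different group, Prag1 (r = 0.907), Rnf139 (0.898), Plce1 (0.895), Chpt1 (0.895) and Tmem159 (0.891). For Lpar3, added after its values were seen, the 5 genes were Hey2 (0.930), Frzb (0.930), Sall1 (0.921), Igf1 (0.919) and Itga7 (0.909). Their Spearman's rho was 0.361 to 0.650, because AVP female 2 and saline female 4 were far above the rest.

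Markers of meningeal fibroblasts moved with Lpar1 and Enpp2. In females, 7 of the 8 tested markers of the list had every AVP library above every saline library, against 2.78% of all genes. The median log2 difference of the list was 0.88, against -0.05 for all genes. Several markers of this list, Dcn among them, are in the authors' list of genes changed in these females, as are Lpar1 and Enpp2. Nothing is therefore read from the female count. The 9 markers summed to 182 to 269 TPM in AVP females and 112 to 133 TPM in saline females, and to 120 to 234 and 54.6 to 250 TPM in AVP and saline males. No marker of the list was at 0 in all libraries, and the most abundant were Col3a1, at 15.6 to 89.5 TPM, and Dcn, at 10.5 to 68.7 TPM. The male median was 0.20, all 8 tested markers had a difference above 0 without passing the test, and 0 separated without overlap. In bulk tissue, fewer cells of a type and less RNA per cell cannot be told apart, and the part of these cells in the levels of Lpar1 and Enpp2 was not tested.

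**Figure D4:**
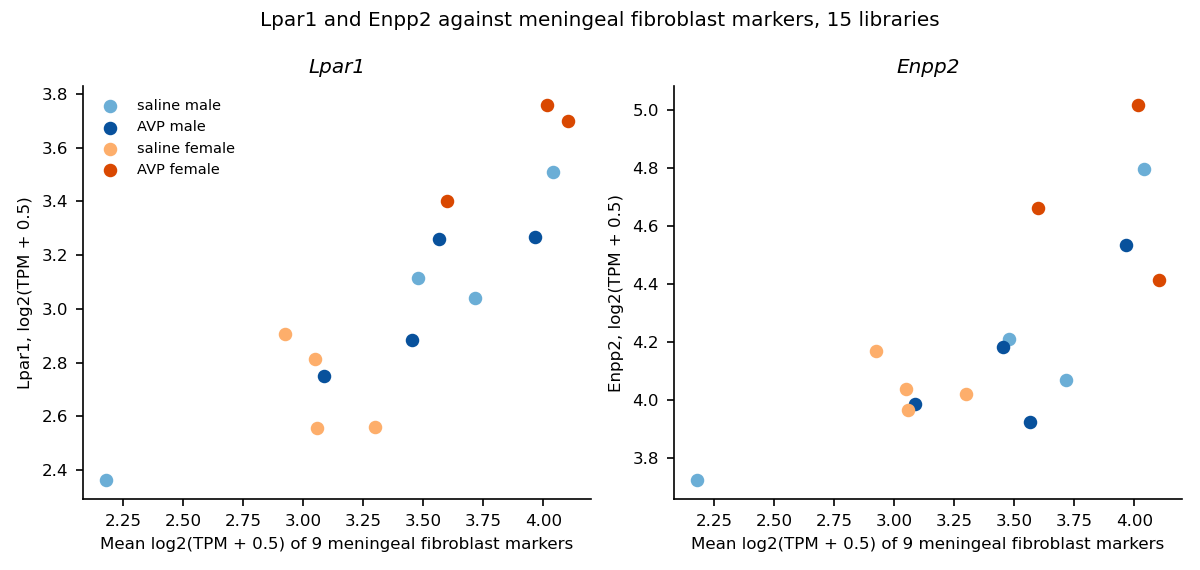
Lpar1 (left) and Enpp2 (right) as log2(TPM + 0.5) against the mean log2(TPM + 0.5) of 9 meningeal fibroblast markers, 1 point per library, coloured by group. Saline male 1 is lowest on both axes in both panels, and AVP females 2 and 3 and saline male 2 are farthest to the right.

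Across the 8 males, which the choice of members did not use, Lpar1 was correlated with the mean log2 level of the meningeal fibroblast list. Pearson's r was 0.939 (exact permutation p = 0.00062, adjusted p = 0.00938 over 18 relations) and Spearman's rho 0.929 (exact permutation p = 0.00223). It was 0.803 without the 2 libraries farthest from the median of the list, 0.943 for deviations from group means, 0.939 for deviations from run means and 0.941 without the library labelled saline male 3. The same relation for Enpp2 had r = 0.799 (exact permutation p = 0.0178, adjusted p = 0.0435), rho = 0.738 (exact permutation p = 0.0458) and 0.662 without the 2 farthest libraries. Enpp2 was most closely related to the list of border macrophages and microglia, with r = 0.921 (exact permutation p = 0.00104, adjusted p = 0.00938), rho = 0.976 (exact permutation p = 0.000397) and 0.936 without the 2 farthest libraries. Lists of vessel cells were also related to Lpar1, with r = 0.878 for endothelium and 0.858 for mural cells (adjusted exact permutation p = 0.0243 and 0.0247 over 8 libraries). These fell to 0.622 and 0.651 without the 2 farthest libraries. Lpar1 was also related to border macrophages and microglia (r = 0.878, adjusted exact permutation p = 0.0247), at 0.541 without the 2 farthest, and to red blood cells (r = 0.832, adjusted exact permutation p = 0.0292), at 0.933 without them. Enpp2 was also related to mural cells (r = 0.790, adjusted exact permutation p = 0.0435), at 0.317 without the 2 farthest. Thus, by Pearson's r, 5 of the 9 lists passed adjustment with Lpar1 and 3 of the 9 with Enpp2. By Spearman's rho, only meningeal fibroblasts, endothelium and red blood cells passed with Lpar1 (adjusted exact permutation p = 0.0201, 0.0482 and 0.0274). With Enpp2, only border macrophages and microglia passed by rho (adjusted exact permutation p = 0.00714). The 18 relations, 9 marker lists with each of 2 genes, were chosen after the data were seen.

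Markers of choroid plexus epithelium, a known site of Enpp2, varied widely between libraries. The marker Ttr, a thyroid hormone carrier, was at 2197, 13.9 and 1348 TPM in AVP females 1 to 3. Saline females had Ttr at 16.6, 922, 24.4 and 3.23 TPM. It was at 615 TPM in AVP male 1, at 559 and 680 TPM in saline males 1 and 2, and at 1.53 to 6.98 TPM in the other 5 males. Of the libraries with Ttr at 559 TPM or more, all but AVP female 3 were in the first run of sequencing numbers. The relation of Ttr to the run was not tested. Enpp2 was highest in AVP female 2, where Ttr was 13.9 TPM, and lowest in saline male 1, where Ttr was 559 TPM. The next highest Enpp2 values were 27.3 TPM in saline male 2, where Ttr was 680 TPM, and 24.8 TPM in AVP female 1, where Ttr was 2197 TPM. Over the males, Enpp2 and the choroid plexus list had r = 0.226 (exact permutation p = 0.590, n = 8, adjusted p = 0.709) and rho = 0.429 (exact permutation p = 0.299). The part of choroid plexus cells in the level of Enpp2 was not tested.

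The other marker lists were set beside the members in the same way. In females the median log2 difference was 0.38 for endothelium, 0.31 for mural cells, 0.36 for border macrophages and microglia, 1.71 for choroid plexus, 1.04 for red blood cells, -0.01 for radial glia, -0.23 for the oligodendrocyte lineage and 0.02 for dorsal forebrain. Cldn5, a tight junction gene of endothelium, was at 91.4, 84.7 and 101 TPM in AVP females and 50.5 to 86.8 TPM in saline females. In males the medians were -0.16 for endothelium, -0.17 for mural cells, 0.04 for border macrophages and microglia, -0.40 for choroid plexus, 0.30 for red blood cells, 0.05 for radial glia, -0.20 for the oligodendrocyte lineage and -0.10 for dorsal forebrain. With median-of-ratios scaling the medians of radial glia in females and of dorsal forebrain in males were above 0. The part of these cells in the levels of the members was not tested.

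The wider pathway was examined in males from 6 lists of genes. Of 20 tested enzymes that make or remove LPA and its precursors, 0 passed limma's adjusted threshold, 4 had an unadjusted p under 0.05 and all 4 were lower with AVP. Over all genes tested in males, 13.5% had an unadjusted p under 0.05 and 8.22% of those were higher with AVP, so the direction of these and the following list counts was that of most genes. The 4 enzymes were Pnpla2, the triglyceride lipase of fat droplets (10.1 ± 0.708 against 13.8 ± 1.10 TPM, n = 4 each), Pla2g6, a calcium-independent phospholipase A (21.5 ± 7.23 against 33.4 ± 4.58 TPM), Gdpd3, a lysophospholipase D that forms LPA (3.29 ± 1.79 against 5.79 ± 1.56 TPM), and Gpam, which makes LPA from glycerol 3-phosphate (15.8 ± 1.45 against 18.4 ± 1.04 TPM). Their adjusted p-values by limma were 0.304, 0.304, 0.339 and 0.345. The median of the list was -0.15 on the log2 scale, beside -0.10 for all genes tested. With median-of-ratios scaling these 2 medians were -0.04 and 0.00, and 2 enzymes had an unadjusted p under 0.05.

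The other lists were alike in having no gene past the adjusted threshold. Of 9 phosphatases and PLPP-related proteins besides the members, 2 had an unadjusted p under 0.05, both lower: Plpp5 (31.2 ± 3.21 against 37.3 ± 2.92 TPM, limma adjusted p = 0.320) and Plppr2 (82.1 ± 2.96 against 93.2 ± 8.12 TPM, 0.342). Of 10 S1P genes these were Sgpl1, the S1P lyase, and Spns2, the S1P exporter, with log2 differences of -0.30 and -0.47 (limma adjusted p = 0.321 and 0.362). With median-of-ratios scaling and with quantile normalization, 0 genes of both lists had an unadjusted p under 0.05. Of 12 SRF and YAP/TAZ target genes, which respond to the actin cytoskeleton, only the actin crosslinker Flna had an unadjusted p under 0.05 (143 ± 56.1 against 212 ± 23.9 TPM, log2 difference -0.64, limma adjusted p = 0.330). With median-of-ratios scaling 0 genes of this list had an unadjusted p under 0.05 by limma, and with quantile normalization 1 did. The well known targets Ccn1 and Ccn2 had log2 differences of 0.01 and -0.01 on deposited TPM.

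Of 4 tested Enpp genes besides Enpp2, 0 had an unadjusted p under 0.05 in males, and none of the 3 tested P2Y-type receptors did. Enpp1 was at 1.75 ± 0.512 TPM in AVP males and 1.81 ± 0.674 TPM in saline males, and at 2.12 ± 0.0805 and 1.19 ± 0.548 TPM in AVP and saline females. Among LPA receptors that are not members, Lpar5 was at 0.152 to 0.693 TPM over the 15 libraries and P2ry10 was listed at 0 in all. Of the receptors for the infused hormone itself, Avpr1a was at 0.0599 to 0.826 TPM, Avpr1b at 0 to 0.322 TPM and Oxtr at 0.282 to 1.82 TPM, and Avpr2 was listed at 0.

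**Figure D5:**
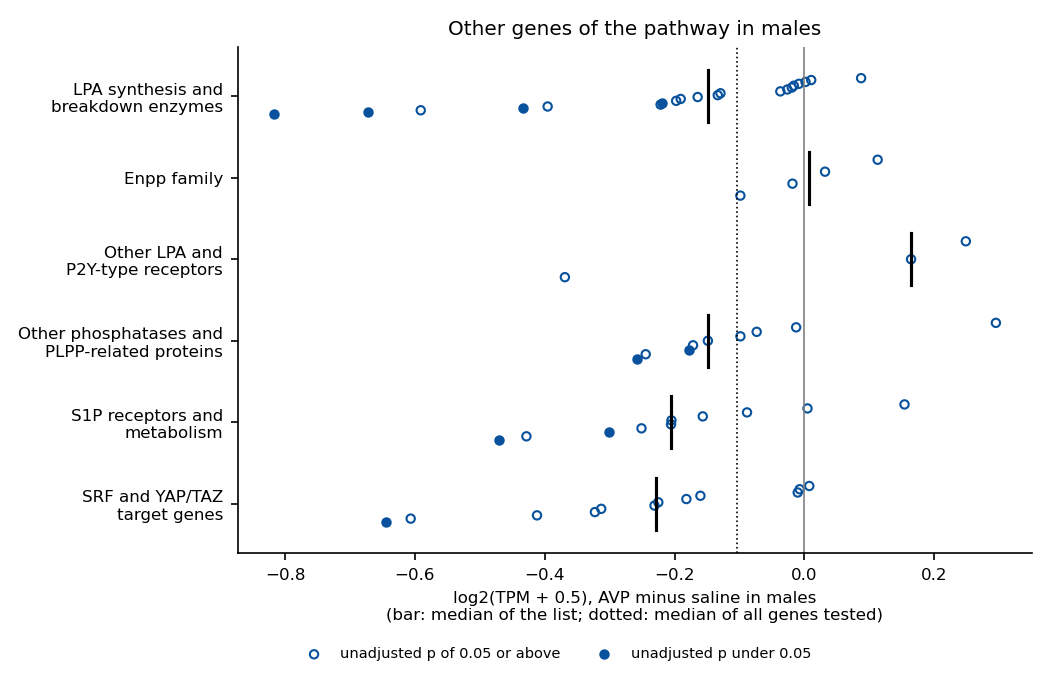
Log2(TPM + 0.5), AVP minus saline in males (horizontal axis), of each tested gene in 6 pathway lists (rows), with the list median as a bar and the median of all genes tested (-0.10) as a dotted line. Filled points, with an unadjusted p under 0.05, all lie below 0, as did most genes at that p on deposited TPM (8.22% were higher with AVP), and none passed the adjusted threshold.

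The list medians in males depended on scaling in the same way as the median of all genes. They were -0.15 for phosphatases and PLPP-related proteins, -0.21 for S1P genes and -0.23 for SRF and YAP/TAZ targets. With median-of-ratios scaling they were -0.04, -0.10 and -0.13. Among all genes at an unadjusted p under 0.05 in males, 8.22% were higher with AVP on deposited TPM, against 56.8% with median-of-ratios scaling and 49.9% with quantile normalization. In females, with no test, the list medians were -0.16 for LPA enzymes, -0.27 for phosphatases and PLPP-related proteins, -0.03 for S1P genes and 0.19 for SRF and YAP/TAZ targets, and that of S1P genes was above 0 with both other scalings.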

How the data were processed

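Libraries of E18 dorsal forebrain were made with a stranded mRNA kit. Per the submitters' processing notes, the tools were Trim Galore 0.4.1, FastQC 0.5.2, Kallisto 0.43.1 and sleuth 0.29.0. The authors quantified reads against GENCODE M16 transcripts (GRCm38) with Kallisto, and the values they deposited, 1 per transcript and library, are TPM, scaled by the authors to transcript length and library total. The header names no unit, which was read from the total that all libraries share. TPM hold no counts, so depth is unknown and no count model was run.

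Of 133849 transcripts, 133445 were summed to 53337 genes with GENCODE M21. The 404 others held 0.154 to 0.199% of a library. A gene was fitted where 50% or more of the libraries compared reached 1 TPM. Log2(TPM + 0.5) was compared between AVP and saline within a sex with limma 3.58.1 (R 4.3.3, trended variance). Benjamini-Hochberg adjustment ran over all genes, with a threshold of 0.05. Single values had exact two-sided permutation tests (numpy 2.4.6, checked against scipy 1.17.1), and confidence intervals are at 95%. Fold changes on this scale understate changes of low genes. Exons were compared with Biopython 1.88. The scripts were tested on simulated data. Replicates were numbered in accession order, and p-values measure the spread between libraries whose litters are not labelled. No pair of libraries held identical values.

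The members and lists were chosen with earlier results of these data known. Named genes were the members, up to 4 genes of each pathway list with the smallest unadjusted p in males, the 5 most alike genes of Lpar1, Enpp2 and Plpp3, the most abundant markers, the sex-linked genes and the vasopressin and oxytocin receptors. Some named markers and receptors and 1 pathway list are not reported here. Alternatives were 2 scalings, filters, pseudocounts, no trend, the run of sequencing numbers as a covariate, a joint fit of the 15 libraries and the omission of single libraries.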

Additional observations from a re-analysis of the deposited data

Results flagged for a closer look

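In groups of 4 libraries, 93 sets of values were screened for a library far from the other 3 by Dixon's criterion, and 5 were found; chance alone gives about 1 in 20, or 4.7. Lpar3 in saline male 1 was 0.224 TPM, against 0.261 to 0.267 TPM in the other saline males, a difference of no size at this level. The mean log2 level of the dorsal forebrain markers was 6.72 in AVP male 4, above 6.24 to 6.32 in the other AVP males. The mean log2 level of border macrophage and microglia markers was 2.26 in AVP male 2, against 1.70 to 1.80 in the other AVP males, and this library also had the highest Enpp2 of its group. Xist was 266 TPM in the library labelled saline male 3, and the Y-linked genes summed to 0.489 TPM there.

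The share of Enpp2-201 differed in direction between the sexes. It was 7.22 points higher with AVP in males and -4.59 points (AVP minus saline) in females, and in each sex the groups did not overlap. The margins were narrow, with AVP male 2 at 85.8% and saline male 2 at 85.6%. AVP female 3 was at 84.8% and saline female 3 at 85.1%. Without the library labelled saline male 3 the male groups still separated. That library, with Xist at a female level, was at 84.4%, so placed among saline females it would lie below AVP female 3. How often other genes separated in this way was not computed. The difference between the sexes was not tested.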

How the results depend on the processing

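Among the members, 0 were called in males under all 18 alternatives, and 0 member transcripts and 0 transcript shares when each male library was left out. The exact test of a share can pass adjustment over 5 members only if at least 3 of them reach its smallest p, so the last count says little on stability. Male log2 differences near 0 changed sign without passing the test. With quantile normalization and with median-of-ratios scaling, Enpp2 was at 0.092 and 0.066, Plpp1 at 0.11 and 0.080, Plpp2 at 0.14 and 0.092 and Plpp3 at 0.064 and 0.050. Leaving out 1 male library at a time gave -0.18 to 0.20 for Lpar1, -0.20 to 0.16 for Enpp2, -0.069 to 0.0061 for Plpp1, -0.10 to 0.10 for Plpp2 and -0.13 to 0.016 for Plpp3, so saline males 1, 2 and 4 and AVP males 1 to 4 each turned at least 1 sign. Over the same settings Lpar2 kept a negative sign (-0.37 to -0.14), with adjusted p-values by limma of 0.264 to 0.690. In females, with no test, Lpar1 was 0.84 to 1.02 and Enpp2 0.49 to 0.79 when 1 library was left out.

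Counts over all genes were unstable. In males, 1 gene was called, against 0 with at least 5 TPM in every library, with a pseudocount of 1, with the run of sequencing numbers as a covariate and with 1 fit of all 15 libraries, and 2 without the trend. Leaving out 1 library gave 0 to 6 genes in males and 0 to 6 in females, where 6 were called without saline female 4. Pearson's r of Lpar1 with Enpp2 was 0.682 to 0.948 when 1 male library was left out, and it missed 0.05 by the exact permutation test when AVP male 2 (0.775) or saline males 1 (0.699) and 2 (0.682) were left out singly. With a pseudocount of 1 it was 0.793. Some marker relations that passed adjustment by Pearson's r missed an unadjusted 0.05 when 1 male library was left out. These were Enpp2 with meningeal fibroblasts (without AVP male 2) and with mural cells (without saline male 1 or 2). Lpar1 with border macrophages and microglia missed it too (without saline male 1). No paired analysis was possible because the labels give no replicate numbers or litters. TPM without read counts set no limit of detection, so a value of 0 says only that a transcript is listed at 0.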
